A study of Mus musculus with 4 samples.

Results

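Cytosolic and mitochondrial heat shock proteins are molecular chaperones. HSP90 and HSP70 bind client proteins in cycles of ATP hydrolysis, HSP40 proteins deliver clients to HSP70, and the HSP60 and HSP10 chaperonins fold imported proteins inside mitochondria. Heat shock factors, with HSF1 as the main one under stress, switch on many of these genes through a DNA motif called the heat shock element. The chaperones are of interest here because the receptor tyrosine kinase ErbB2 is a known client of HSP90.

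The genes described are Hsp90aa1, Hsp90ab1, Hspa8, Hspa4, Hspa9, Hspb1, Hspd1, Hspe1, Dnajb1 and Hsf1, 10 in all, chosen by name, with every probe set that the platform annotation assigns to 1 of these symbols alone. A probe set is the group of short array probes whose brightness is summarised into 1 value for a transcript. The annotation lists such probe sets for 8 of the 10 genes, 21 probe sets in all, out of 12393 genes with probe sets of a single symbol. No probe set is listed under Hsp90ab1 or Hsf1, so these genes were not analysed here, and no probe set lists 1 of the 10 symbols together with another.

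RNA was taken from NF639, an ErbB2-driven mouse mammary tumour cell line. The 4 samples are 2 from original, unselected NF639 cells and 2 from a pool selected for resistance to epigallocatechin gallate (EGCG), a polyphenol of green tea, each on its own Affymetrix Mouse 430A 2.0 array. The submitters' text names independent experiments but not whether EGCG was present when RNA was taken. The resistant cells are a single pool, so its arrays do not sample independent selections. The p-values measure only a spread between arrays, estimated in part from other probe sets of like brightness.

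Of the luminal epithelial markers, keratins and Cdh1 among them, 10 of 11 genes had no probe set bright enough to be tested. Their 16 probe sets ran from 1.4 to 62.9 on all arrays and summed to 311.2 and 279.4 on the original arrays, with sums of 277.3 and 263.2 for the resistant pool. Erbb2 itself had signals of 319.7, 299.4, 280.7 and 326.2 (original 1 and 2, then resistant 1 and 2). The same order of arrays is used throughout. Vim, an intermediate filament gene of mesenchymal cells, had signals from 15875.5 to 19936.1 on its brightest probe set. Leukocyte and endothelial markers (10 probe sets) ran from 0.4 to 247.4, and fibroblast markers (15 probe sets) from 1.5 to 14860.8, the latter for S100a4. Of the 7 tested fibroblast marker genes 0 passed the threshold (0.169% of all tested probe sets passed). Their log2 fold changes, resistant minus original, ran from -2.15 for Dcn to 1.99 for Col3a1, with 4 above 0 and 3 below. With the array number as a term 3 of the 7 passed as higher and 2 as lower in the resistant pool, against 5.23% of all tested probe sets past the threshold in either direction. Their part in the values below was not tested. The 7 probe sets of the spiked controls BioB, BioC and BioDn were brighter on array 2 of each population, by 1.39 to 2.11 times for original cells and by 1.48 to 2.29 times for the resistant pool. Differences are therefore also given between arrays of the same number, and from a fit with the number as a term. In that fit the spread of a probe set was taken wholly from probe sets of like brightness, not from its own arrays. The probe set for the 5′ end of 18S ribosomal RNA stood at 4005.3 on original array 2 against 362.4, 346.7 and 624.3 on the other arrays. Its part in the results below was not tested. The median and range without that array are given for the tested heat shock probe sets, but not for the lists of other genes.

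Hspd1 and Hspe1 are divergent neighbours on chromosome 1 that encode the partner chaperonins HSP60 and HSP10. The stretch shown lies between the start of Hspe1, at 55088148, and the listed start of Hspd1 at 55087932. It was chosen because it is upstream of both these starts and carries heat shock element letters. The other listed start of Hspd1, at 55088243, lies beyond the start of Hspe1, so that for a transcript from there the stretch is inside the gene. It is read on the strand of Hspe1 from the RefSeq promoter table (GRCm38.p6, chr1:55088018-55088117, plus strand), and the capitals mark alternating TTC and GAA units.

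Hspe1 and Hspd1, stretch between starts: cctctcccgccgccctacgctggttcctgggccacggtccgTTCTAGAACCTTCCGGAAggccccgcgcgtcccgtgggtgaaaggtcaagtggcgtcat

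The run in capitals spans 18 bases, from 89 to 72 bases before the start of Hspe1. It lies from 127 to 144 bases before the Hspd1 start at 55087932. Windows of 300 bases (250 before and 50 after a start) were searched on both strands for the palindromes GAANNTTC and TTCNNGAA, which overlap within the run, and for any 3 alternating units in a row. Of 32851 windows, 7.86% held GAANNTTC, 8.52% held TTCNNGAA and 0.603% held 3 units. The table held windows for 5 of the genes: Hspd1 (2 starts), Hspe1, Hspb1, Dnajb1 (2 starts) and Hspa4. Those of Hspa4 and Dnajb1, and that of the Hspd1 start at 55088243, had no match in these letters. Hspb1, which encodes the small heat shock protein HSP25, held 2 separate GAANNTTC matches and no run of 3 units. Its stretch is shown for comparison (chr5:135887789-135887848, plus strand), with the matches in capitals.

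Hspb1, upstream stretch: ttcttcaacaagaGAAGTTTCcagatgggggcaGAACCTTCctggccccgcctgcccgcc

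None of the 7 heat shock genes that could be tested passed the test for a difference between the resistant pool and the original population. Few of all tested probe sets passed it, so this count does not set these genes apart. Of 21 probe sets, 18 passed the filter on dim signals, which cover 7 genes, and 0 of 18 passed at an adjusted p of 0.05 (limma, Benjamini-Hochberg), with 0 at an unadjusted p under 0.05 (7.35% of all tested). Over all 13576 tested probe sets 0.169% passed. With the replicate number as a term, 0 of the 18 passed against 5.23% of all tested, and 2 had an unadjusted p under 0.05, against 15.7% of all tested. Log2 fold changes, resistant minus original on the log2(signal + 3) scale, ran from -0.22 to 0.29 with a median of 0.05. The median over all tested probe sets was -0.0035. Adjusted p-values ran from 0.831 to 0.998. Without original array 2, the median of the 18 log2 fold changes was 0.15, with values from -0.29 to 0.46 and 4 of changed sign. The bound farthest from 0 among the 95% intervals of the 18 probe sets was 0.96, or 1.95-fold. In this fit, each interval taken alone thus left out a 2-fold difference in either direction. That need not hold in other settings: for the probe set with this bound, 1416147_at of Hspa4, the SE was 0.393 here and 0.442 without the filter. These intervals rest on a spread that limma shares across probe sets of like brightness, since each population has 2 arrays.

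**Figure D1:**
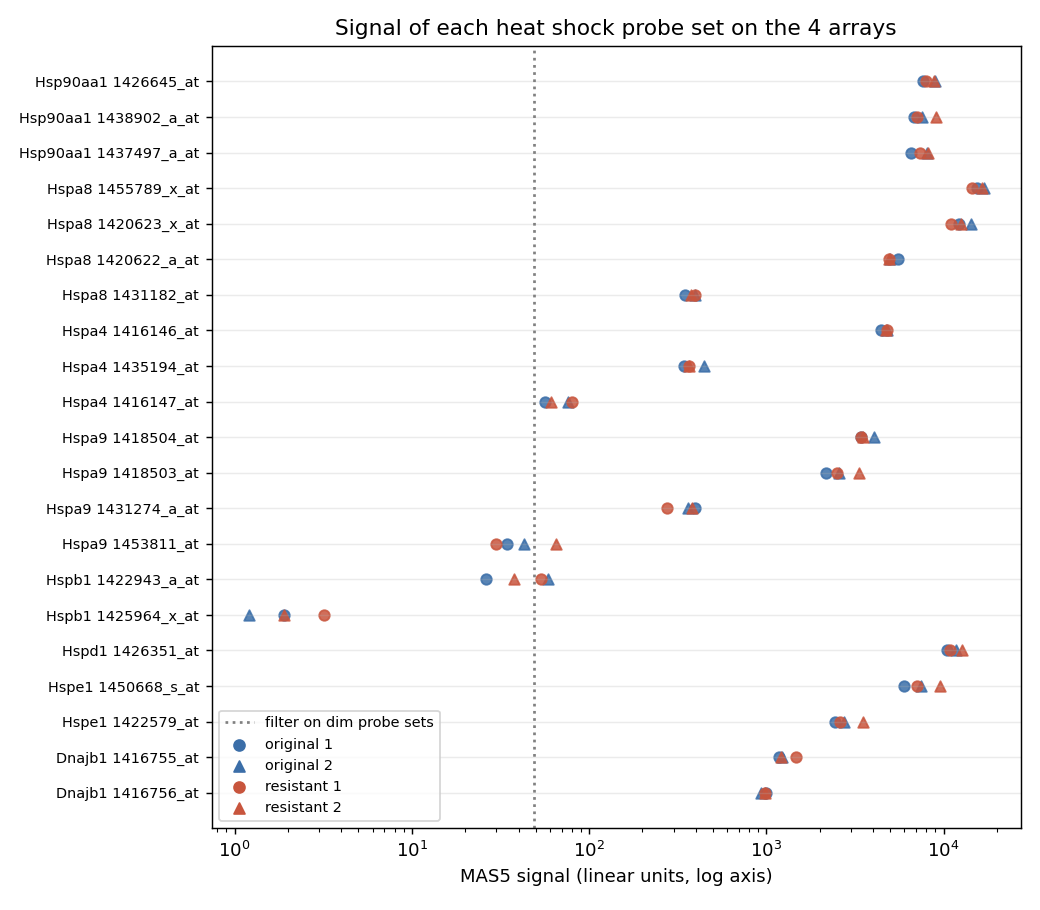
MAS5 signal (linear units, logarithmic horizontal axis) of the 21 probe sets of the heat shock genes, with colour for the population and symbol for the array number. The dotted line marks the filter signal of 49.1, which was compared with the mean over the 4 arrays. The symbols of both colours lie among each other in 17 of the 18 tested probe sets, and the points of Hspb1 lie on both sides of the line for 1422943_a_at and left of it for 1425964_x_at.

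Both resistant arrays lay above both original arrays in 0 of the 18 tested probe sets, against 17.7% of all tested. Both lay below in 1 of 18, against 18.2% of all tested. That 1 was the Hspa8 probe set 1420622_a_at.

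Hsp90aa1 encodes the inducible form of cytosolic HSP90, and its 3 probe sets overlapped between the populations. Probe set 1426645_at gave 7610.6, 8991.9, 7948.6 and 8892, which is 8301 ± 977 for original cells and 8420 ± 667 for the resistant pool (SD, n = 2 per group). In both populations array 2 was the higher. The log2 fold change was 0.02 ± 0.175 (SE), with a 95% interval from -0.37 to 0.41 and limma adjusted p = 0.998. Probe set 1438902_a_at gave 6787.1, 7541.2, 7111.1 and 9067.5, so that resistant array 2 was the highest and resistant array 1 lay between the original arrays. Its log2 fold change was 0.17 ± 0.182 (SE). Probe set 1437497_a_at gave 6548, 8093, 7380.5 and 8134.1, with a log2 fold change of 0.09 ± 0.178 (SE). The arrays of number 2 were the higher ones in each population for each of these 3 probe sets.

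Hspa8 encodes the constitutive cytosolic HSP70, often called HSC70. Its probe set 1455789_x_at gave 15388.5, 16862.7, 14524.6 and 16433.5, and 1420623_x_at gave 12204.9, 14279.4, 11082.5 and 12497.4. In both, the resistant array lay below the original array of the same number, by 0.08 and 0.04 on the log2 scale for the first and by 0.14 and 0.19 for the second. Probe set 1420622_a_at gave 5521.8, 5013.2, 4900.5 and 4909.7, or 5268 ± 360 and 4905 ± 6.51 (SD, n = 2 per group). Here the original arrays were both higher, but original array 1 differed more from its own replicate than that replicate did from the resistant arrays. The 3 log2 fold changes were -0.06, -0.17 and -0.10, with limma adjusted p from 0.933 to 0.991. The dimmer 1431182_at gave 346.1, 394.3, 395.2 and 374.4 and a log2 fold change of 0.06 ± 0.217 (SE), so the probe sets of Hspa8 were not all of the same sign. The suffix _x_at marks probe sets that the array design lists as able to bind other transcripts, and HSP70 genes are alike in sequence.

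Hspa4 is a cytosolic member of the HSP110 family, which exchanges the nucleotide on HSP70. Its brightest probe set 1416146_at gave 4454.8, 4791.3, 4796.6 and 4762. Original array 1 was the low one, and the other 3 arrays lay close together. The log2 fold change was 0.05 ± 0.160 (SE), with a 95% interval from -0.31 to 0.40. Probe set 1435194_at gave 345.1, 447.5, 368.1 and 365.4 and a log2 fold change of -0.10 ± 0.228 (SE), with original array 2 the high one. Probe set 1416147_at was dim, at 56.1, 76.5, 80.6 and 60.9, and its log2 fold change of 0.09 ± 0.393 (SE) had the widest interval of the 18, from -0.78 to 0.96.

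Dnajb1 encodes an HSP40 protein that brings clients to HSP70 and is itself strongly induced by heat. Probe set 1416755_at gave 1186.3, 1231.2, 1472.5 and 1212.3, so that resistant array 1 alone was high. Its log2 fold change was 0.14 ± 0.177 (SE), made up of 0.31 between the arrays numbered 1 and -0.02 between those numbered 2. Probe set 1416756_at gave 994.2, 929.8, 985.9 and 981.4 and a log2 fold change of 0.03 ± 0.173 (SE). It did not show the high resistant array 1 of its partner.

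Hspb1 could not be compared. Probe set 1422943_a_at gave 26.2, 58.9, 53.8 and 37.8 and 1425964_x_at gave 1.9, 1.2, 3.2 and 1.9, both under the filter signal of 49.1 by their mean over the arrays. The populations overlapped in both probe sets. Detection calls were not used here, so these values bound no level.

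Of the 3 mitochondrial genes among the 10, Hspe1 and Hspa9 each had a probe set at a log2 fold change of 0.29, and neither gene passed the test. Hspe1 probe set 1450668_s_at gave 5999.7, 7501.8, 7080.3 and 9564.5, or 6751 ± 1062 and 8322 ± 1757 (SD, n = 2 per group). Resistant array 1 lay below original array 2, so the populations overlapped, while each resistant array lay above the original array of its number, by 0.24 and 0.35 on the log2 scale. The log2 fold change was 0.29 ± 0.201 (SE), with a 95% interval from -0.15 to 0.74 and limma adjusted p = 0.841. With the replicate number as a term the adjusted p was 0.119 (unadjusted 0.0093). Probe set 1422579_at gave 2441.4, 2735.6, 2591.7 and 3508.1, in the same order of arrays, with a log2 fold change of 0.22 ± 0.188 (SE). Without resistant array 2 the log2 fold changes were 0.076 for 1450668_s_at and 0.0021 for 1422579_at, and without resistant array 1 they were 0.51 and 0.44. The suffix _s_at of the brighter probe set marks probes shared by several transcripts in the array design.

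Hspd1, the partner of Hspe1, had 1 probe set, 1426351_at, at 10400.9, 11771.9, 10822.5 and 12730.2. The order of its arrays was that of 1422579_at of Hspe1, but its log2 fold change was smaller, at 0.08 ± 0.178 (SE), with a 95% interval from -0.31 to 0.48. Between arrays of the same number it was 0.06 and 0.11. The 4 arrays allow no test of whether Hspd1 and Hspe1 move together.

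Hspa9 encodes mortalin, the HSP70 of the mitochondrial matrix, and its probe sets disagreed in sign. Probe set 1418504_at gave 3416.1, 4034.5, 3439.6 and 3526.4 (log2 fold change -0.09 ± 0.166, SE), with original array 2 the high one. Probe set 1418503_at gave 2175.8, 2572.2, 2514.6 and 3349.6 (0.29 ± 0.190, SE), with resistant array 2 the high one. For the latter limma gave an adjusted p of 0.831, and 0.286 with the replicate number as a term (unadjusted 0.0406). Its log2 fold change was 0.086 without resistant array 2 and 0.50 without resistant array 1. Probe set 1431274_a_at gave 397.7, 361.1, 276.7 and 381 (-0.22 ± 0.241, SE), with resistant array 1 the low one. The 4th, 1453811_at, ran from 29.8 to 64.7 and was not tested.

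**Figure D2:**
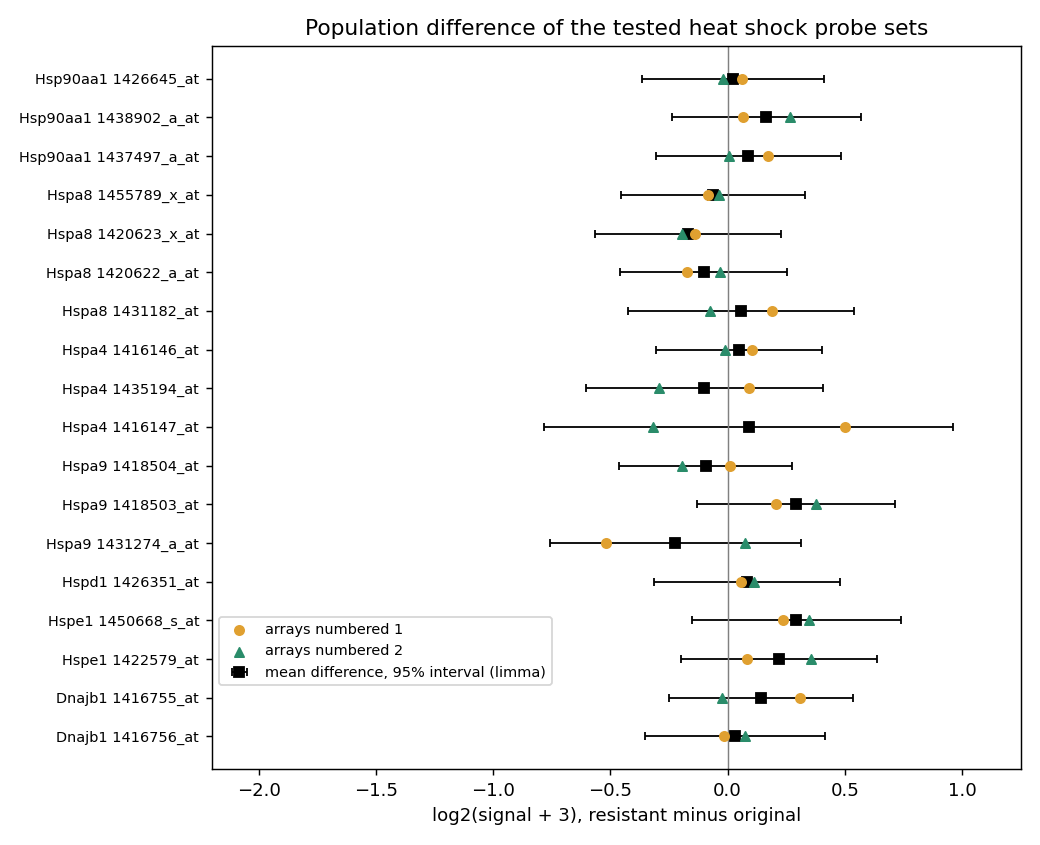
Difference in log2(signal + 3), resistant minus original, of the 18 tested probe sets. Squares with bars are the mean difference and its 95% interval from limma, circles the difference between the arrays numbered 1 and triangles that between the arrays numbered 2; every interval includes 0 and none reaches 1 or -1.

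The difference between the arrays of a population was often larger than that between the populations. In 13 of the 18 probe sets the mean difference of array 2 minus array 1 exceeded the population difference in size. The same count was not made over all tested probe sets, so it does not set these genes apart. Array 2 was above array 1 in both populations in 10 of the 18, against 24.9% of all tested probe sets. These 10 were the 3 of Hsp90aa1, the 2 of Hspe1, that of Hspd1, 2 of Hspa8 and 2 of Hspa9. The medians of array 2 minus array 1 over the 18 were 0.18 for original cells and 0.15 for the resistant pool. All 10 were among the 12 with a mean signal of at least 2000, a limit set after the values were seen. Of the 1868 tested probe sets at that brightness, 56.3% were higher on array 2 in both populations, so the shift was common among bright probe sets. After quantile normalization, which gives each array the same distribution, 6 of the 18 were higher on array 2 in both populations, and the medians were 0.08 and -0.03. The share over all tested probe sets was not counted after quantile normalization, so the 6 cannot be set against it. The median population difference was 0.06 after that step.

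**Figure D3:**
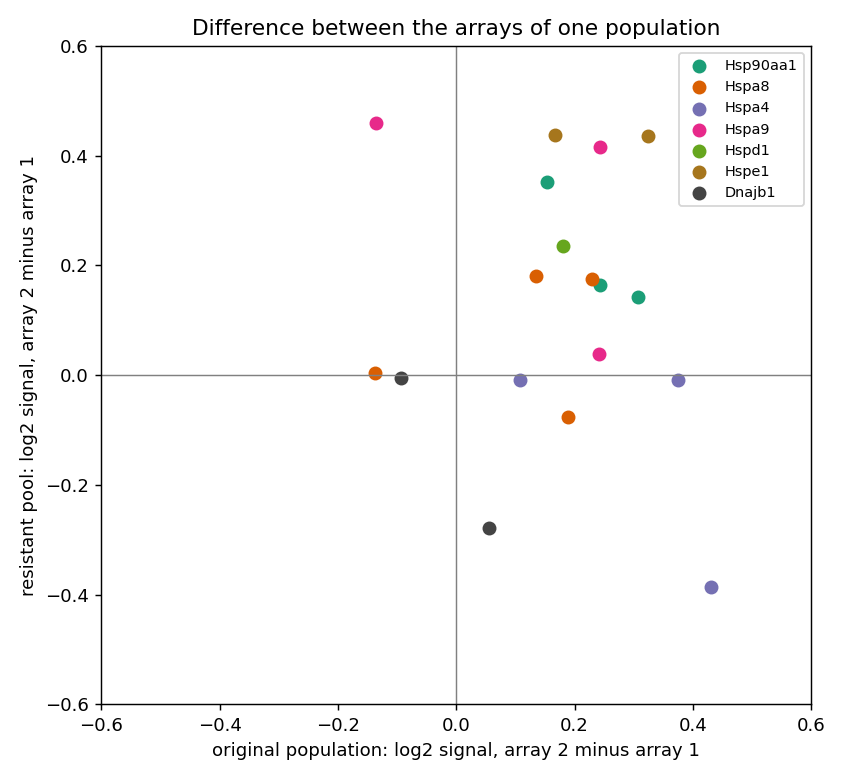
Difference in log2(signal + 3) between array 2 and array 1 within the original population (horizontal) and within the resistant pool (vertical), 1 point for each of the 18 tested probe sets, coloured by gene. The upper right quadrant holds the 10 probe sets that were higher on array 2 in both populations. Those of Dnajb1 and Hspa4 lie outside it, as do 1420622_a_at and 1431182_at of Hspa8 and 1431274_a_at of Hspa9.

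The other genes of the chaperone network were read from lists of the remaining HSP70 and HSP110, HSP40, cochaperone, small heat shock protein, mitochondrial, TRiC and prefoldin, and heat shock factor genes. Of 66 tested genes in these lists, 0 passed over all probe sets in the test without the replicate number. With that number as a term 2 of the 66 passed, a smaller share than the 5.23% of all tested probe sets, so the count is no result about these lists. Hsph1 was higher and Hspa4l lower in the resistant pool. Like Hspa4, they encode HSP110 proteins, which release ADP from HSP70.

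Hsph1, the stress-inducible HSP110 gene, gave 1904.7, 2261, 3254 and 3204.8 on probe set 1425993_a_at. The resistant arrays lay above both original arrays and close to each other. The log2 fold change was 0.64 ± 0.167 (SE), with limma adjusted p = 0.290, and 0.000628 with the replicate number as a term. Between the arrays numbered 1 it was 0.77 and between those numbered 2 it was 0.50. Its other probe set, 1423566_a_at, gave 1482.4, 1633.7, 2266.2 and 2100.8, again without overlap, and 0.49 ± 0.165 (SE; adjusted p = 0.497, and 0.0363 with the number as a term).

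Hspa4l gave 995.1, 1242.5, 897.5 and 588.1 on probe set 1418253_a_at, a log2 fold change of -0.61 ± 0.231 (SE; limma adjusted p = 0.575, and 0.0164 with the number as a term). Most of that lay between the arrays numbered 2, at -1.08 against -0.15 for those numbered 1. This disagreement did not enter the p-value with the number as a term, whose spread came from probe sets of like brightness. The log2 fold change was -0.31 without resistant array 2 and -0.45 without original array 2. The dimmer probe set 1449010_at gave 418.5, 579.2, 456.1 and 358.9, with overlap, and a log2 fold change of -0.28.

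Among the cochaperones of HSP90 and HSP70, 15 of 18 tested genes were fitted above 0, against 6721 of all 13576 tested probe sets. The median log2 fold change of the 18 was 0.16, and 0 passed with or without the number as a term. Whether the list differed as a set was not tested. Bag3, a nucleotide exchange factor for HSP70 that responds to stress, gave 359.6, 513, 613.4 and 634.5 and a log2 fold change of 0.53 ± 0.226 (SE; adjusted p = 0.636), which was 0.28 without original array 1 and 0.79 without original array 2. Fkbp4, an immunophilin that binds HSP90, gave 1116.1, 1289, 1409.9 and 1622.4 and 0.33 ± 0.177 (SE; adjusted p = 0.752). For both genes the resistant signals lay above the original ones, as in 7 of the 18 tested genes of this list and 17.7% of all tested probe sets. They lay below in 0 of the 18, against 18.2% of all tested.

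Of 13 tested HSP40 genes 9 were fitted above 0, against 6721 of all 13576 tested probe sets, with a median of 0.15. Both resistant arrays lay above both original arrays in 7 of the 13, against 17.7% of all tested probe sets. Both lay below in 0, against 18.2%. Whether this list differed as a set was not tested. The furthest from 0 were Dnajc21 at 0.39 ± 0.212 (SE) and the dim Dnajb5 at -0.29 ± 0.374 (SE). Of 14 other mitochondrial chaperone and protease genes 7 were fitted above 0 and 7 below (median 0.01). Hscb, an HSP40 of iron-sulfur cluster assembly, was at -0.49 ± 0.362 (SE), and leaving out 1 array moved it between -0.85 (without resistant array 1) and -0.12 (without resistant array 2). Afg3l2, a subunit of the inner membrane AAA protease, was at 0.46 ± 0.207 (SE).

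The cytosolic chaperonin TRiC and its partner prefoldin had a median of 0.04 over 13 genes. Of these 8 were above 0, against 6721 of all 13576 tested probe sets. Pfdn2 at -0.29 ± 0.184 (SE) and Pfdn6 at 0.25 ± 0.168 (SE) were the furthest from 0. The 3 tested small heat shock protein genes had a median of -0.21. Hspb2 gave 75.3, 60.2, 41.5 and 48.8, and Cryab, which encodes alpha-B crystallin, gave 1376.7, 2389, 1369.1 and 1786.4. The log2 fold change of Cryab was -0.21, and 0.18 without original array 2. Hsbp1, which encodes a protein that binds heat shock factor trimers, was the 1 tested gene of its list, at -0.21 ± 0.162 (SE).

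**Figure D4:**
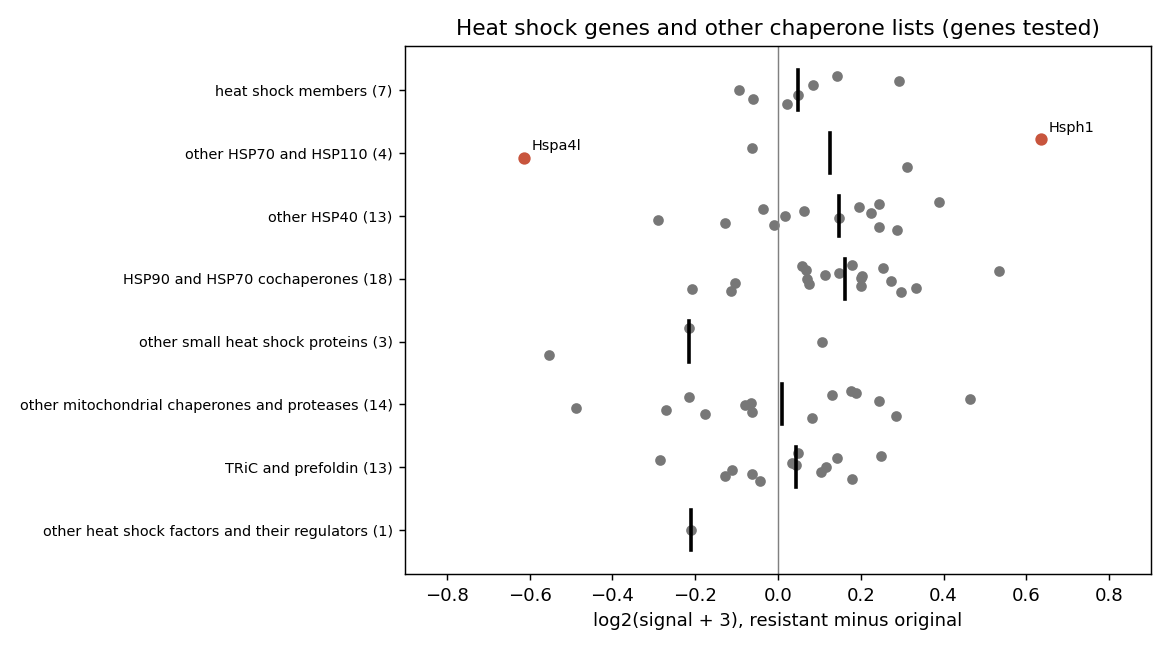
Log2 fold change, resistant minus original, of each tested gene in the 10 heat shock genes (7 tested) and in 7 lists of other chaperone genes, with the number tested in brackets and a black bar at each list's median. Grey points did not pass in either fit, and the 2 red points, Hsph1 and Hspa4l, passed only with the replicate number as a term.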

How the data were processed

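The deposited intensities are MAS5 signals on a linear scale, 1 per probe set and array, per the submitters' processing notes. No version of that software is stated there. Gene names came from the platform annotation. The 64 control probe sets were left out. A trimmed mean (2% off each end) set the scale between arrays. After log2(signal + 3), the dimmest 40% of probe sets by mean log2 value (below signal 49.1) were dropped, leaving 13576. The filter was first taken on the mean of the linear signals, where 31 probe sets passed over all, against 23 here; the log2 mean was settled on after both had been computed, and 0 heat shock probe sets passed either way. The population difference, resistant less original, was tested with limma 3.58.1 (R 4.3.3; lmFit, eBayes with a mean-variance trend, two-sided, Benjamini-Hochberg over all tested probe sets, threshold 0.05). The same code was tested on simulated data. An exact permutation test of 2 against 2 arrays cannot go below 0.333, so precision is limited by the number of arrays.

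A listed gene took its brightest kept probe set. Every probe set of the 10 genes is reported. Of the other lists, genes past the threshold with or without the replicate number are named, otherwise the 2 furthest from 0. The members and lists were chosen with earlier results of these data known. Promoter windows are from RefSeq (GRCm38.p6). Alternatives covered the pseudocount, filter, scaling, variance model, replicate block and left-out arrays.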

Additional observations from a re-analysis of the deposited data

How the results depend on the processing

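In each of the 13 alternatives 0 heat shock probe sets passed. Over all probe sets 23 passed in the main setting, 710 with the replicate block, 5 without a filter, 10 with the filter at the 60th percentile, 31 with the filter on the mean of the linear signals (added after seeing the data), 8 after quantile normalization and 0 without a variance trend (922 at an unadjusted p under 0.05), all by limma. Leaving out 1 array gave 68 (resistant 1) to 111 (original 1), and 76 without original array 2. The block leaves 1 residual degree of freedom, and limma there took each spread from the trend with brightness alone. Its p-values thus do not reflect how well the same-number differences of a probe set agree. The numbers are not known to pair the samples: across probe sets, array 2 minus array 1 correlated at 0.352 between the populations, from 2 pairs only. Of the 18 tested heat shock probe sets, 217 values under an alternative kept their sign and 16 did not, all 16 when 1 array was left out. The ranges of log2 fold change over the left-out arrays were -0.10 to 0.14, -0.011 to 0.34 and -0.065 to 0.24 for Hsp90aa1 (1426645_at, 1438902_a_at, 1437497_a_at), -0.15 to 0.029 and -0.038 to 0.15 for Hspa8 (1455789_x_at, 1431182_at), -0.0058 to 0.10, -0.29 to 0.087 and -0.12 to 0.31 for Hspa4 (1416146_at, 1435194_at, 1416147_at), -0.21 to 0.028 and -0.45 to 0.0075 for Hspa9 (1418504_at, 1431274_a_at), -0.034 to 0.20 for Hspd1 and -0.015 to 0.079 for Dnajb1 (1416756_at). They were -0.027 to 0.94 and -0.27 to 0.89 for Hspa1b (1427127_x_at, 1452318_a_at), -0.61 to 0.029 for Dnajb5 and -0.61 to 0.18 for Cryab. Without a change of sign they were -0.28 to -0.052 and -0.17 to -0.034 for Hspa8 (1420623_x_at, 1420622_a_at), 0.086 to 0.50 for Hspa9 (1418503_at), 0.076 to 0.51 and 0.0021 to 0.44 for Hspe1 (1450668_s_at, 1422579_at), and 0.0043 to 0.28 for Dnajb1 (1416755_at). Hsph1 (1425993_a_at) ran from 0.51 to 0.76 over all alternatives, and its limma adjusted p from 0.000628 to 0.670. Hspa4l (1418253_a_at) ran from -0.92 to -0.31, with adjusted p from 0.0164 to 0.972. The causes of these changes were not tested.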

Other observations

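The inducible cytosolic HSP70 gene Hspa1b, named after its values were seen, differed more between the resistant arrays than any of the 18 tested heat shock probe sets. Its 3 probe sets gave 902.5, 1186.4, 1921.9 and 860.7 (1452318_a_at), 780, 1060, 1754.4 and 892.5 (1427127_x_at), and 479.2, 607.7, 986.5 and 591.2 (1427126_at), for original 1 and 2, then resistant 1 and 2. In all 3 resistant array 1 was the high one. Between arrays of number 1 the log2 difference, resistant minus original, was 1.09, 1.17 and 1.04, and between those of number 2 it was -0.46, -0.25 and -0.04. None passed (limma adjusted p = 0.923, 0.827 and 0.742). Hspa1a, a near-identical copy, had a probe set at 20.1, 9.7, 17.7 and 7.3, and signal from the copies may not be separable by these probes.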
